A study of Mus musculus with 9 samples.

Results

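The 7 genes Nlrp3, Aim2, Nlrc4, Pycard, Casp1, Casp4 and Gsdmd encode the sensors, the adaptor, the caspases and the pore-forming protein of the inflammasome, and all 7 were found by their symbols among the 21212 rows of the expression table. An inflammasome is a protein platform that macrophages and microglia assemble when a sensor in the cytosol meets a microbial product or a sign of cell damage. The sensor recruits the adaptor ASC, ASC recruits caspase-1, and caspase-1 cuts the precursors of the cytokines IL-1β and IL-18 as well as gasdermin D, whose fragment opens pores in the plasma membrane and can kill the cell by pyroptosis. Microglia, the resident macrophages of the brain, are a main source of IL-1β in this tissue, and in macrophages the sensor Nlrp3 is known to need a first signal that raises its transcript before a second one triggers assembly.

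Primary microglia from brains of wild-type CD1 pups (P0 to P1) were profiled on Affymetrix Mouse Exon 1.0 ST arrays after 4 h with 100 ng/ml LPS (n = 3 arrays), 20 ng/ml IL-4 (n = 3) or PBS (n = 3). LPS is the bacterial endotoxin that skews these cells to the M1 state, IL-4 skews them to the M2a state, and PBS-treated cells served as the resting state. The cells of all 9 arrays had been grown for 5 to 7 days with 10 ng/ml each of M-CSF and GM-CSF and kept without serum overnight, so the PBS cells had also seen both growth factors. The brains came from pooled litters, and nothing in the labels says whether the 3 arrays of a condition came from separate cultures, so the p-values reflect only how far these arrays differ among themselves, which can be technical variation. Values are log2 expression, on which a difference of 1 is a 2-fold change, and levels of different genes are not compared because each gene has its own probes.

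The microglia label was checked against marker genes: 10 of 13 microglia markers lay above the array median on 8 of the arrays and 9 of 13 on LPS replicate 2. Astrocyte markers were above it too, 8 of 10 on every array, and only 2 of 9 fibroblast and meninges markers were below it on every array. In contrast, 8 or 9 of 9 neutrophil markers and 6 of 6 lymphocyte markers were below it. LPS replicate 3 and PBS replicate 3 stood apart from the other arrays of their conditions. The median of 16 motile cilia genes was 7.06, 6.83 and 8.20 on LPS replicates 1, 2 and 3, between 7.69 and 7.99 on the IL-4 arrays, and 6.75, 6.89 and 8.34 on PBS replicates 1, 2 and 3, and the median of 10 oligodendrocyte lineage genes was likewise higher on replicate 3 of LPS (8.13) and of PBS (8.16) than on the other 7 arrays (6.89 to 7.33). Results on the inflammasome genes are therefore also given without these 2 arrays. For IL-4 against PBS this leaves only PBS arrays whose motile cilia medians lay below those of the IL-4 arrays.

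LPS changed all 7 genes, and between IL-4 and PBS Aim2 alone passed the test. With LPS, 6 of 7 were higher than with PBS at a limma adjusted p under 0.05, against 15.4% of all rows, and Pycard alone was lower, against 22.4% of all rows. The LPS and PBS arrays of these genes did not overlap in any case, as in 20.4% of all rows with LPS higher and 25.4% with LPS lower. The median of the 7 changes was 0.96 on the log2 scale, beside 0.005 over all rows. With IL-4, 0 of 7 were higher than with PBS (3.35% of all rows) and only Aim2 was lower (2.05% of all rows), with a median change of 0.05 beside −0.017 over all rows. The IL-4 arrays lay above the PBS arrays without overlap for Casp4 (14.7% of all rows) and below them for Aim2 (14.3% of all rows). Set directly against IL-4, LPS again gave 6 higher genes (21.0% of all rows) and 1 lower gene (25.9% of all rows), with a median of 1.25 beside 0.03, and again without overlap for any of the 7 (28.4% of all rows higher and 31.5% lower). The LPS and IL-4 comparisons share the PBS arrays and are not independent of each other.

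**Figure D1:**
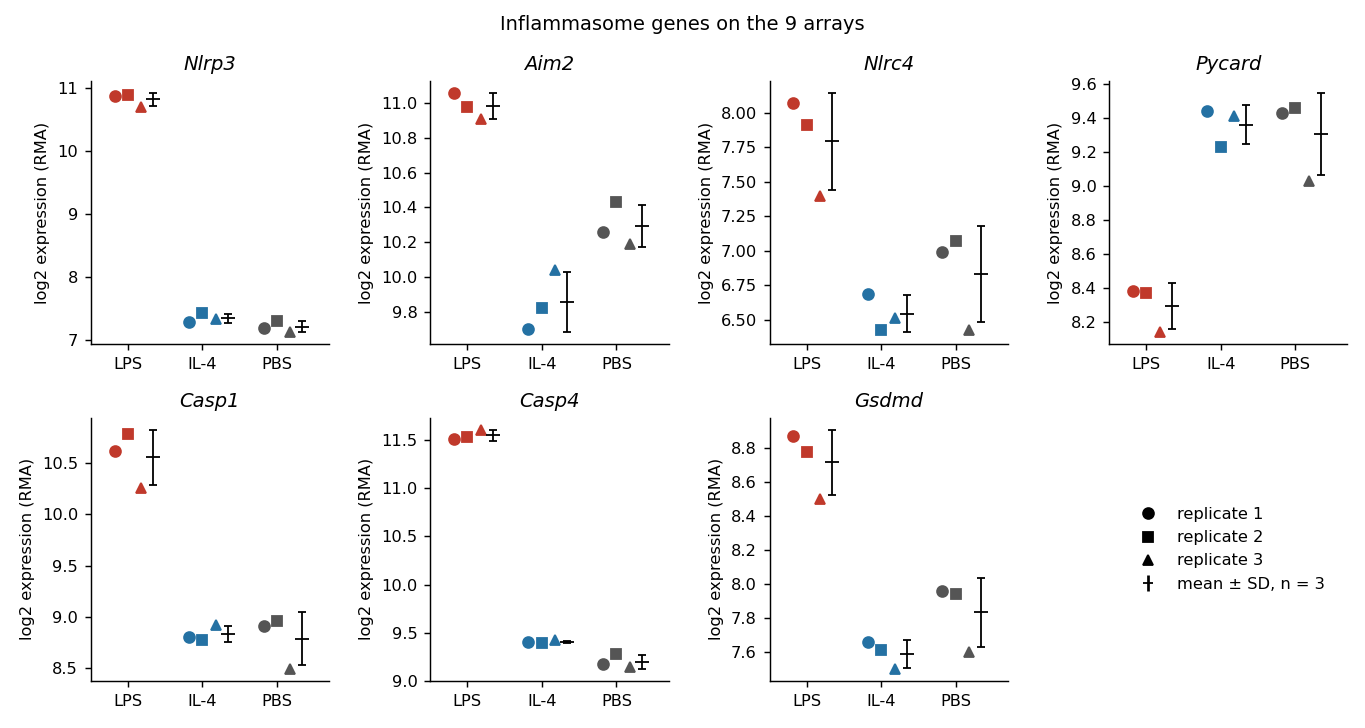
Log2 expression of the 7 inflammasome genes on the 9 arrays, by condition on the x axis, each panel with its own y scale. Symbols mark the replicate number, and the bar beside each condition is the mean ± SD (n = 3). LPS arrays lie above PBS arrays without overlap in 6 panels and below them in the Pycard panel.

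Nlrp3, the sensor that responds to potassium loss and a wide range of damage signals, had the largest change of the 7. Its log2 values were 10.87, 10.88 and 10.70 on the LPS arrays, 7.29, 7.43 and 7.34 on the IL-4 arrays, and 7.20, 7.31 and 7.14 on the PBS arrays. The lowest LPS array was 3.39 above the highest PBS array, whereas the IL-4 and PBS arrays overlapped. LPS raised Nlrp3 by 3.60 ± 0.07 over PBS (SE, 12.1-fold, limma adjusted p = 1.09e-08), the 71st largest rise among all 21212 rows. The difference between IL-4 and PBS was 0.14 (95% interval −0.025 to 0.31, adjusted p = 0.313), which leaves room for a rise of up to 0.31 on the log2 scale. Against IL-4, LPS raised the gene by 3.46 ± 0.07 (11.0-fold, adjusted p = 1.04e-08).

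Nlrp3 has 2 annotated start regions in RefSeq (GRCm38.p6), and the 200 bases before each are shown because this gene rose most. Capitals mark a match to the NF-κB consensus at bases −186 to −177 before the first start (chr11:59541369-59541568, plus strand) and a match to TTCNNNNGAA, the spacing bound by STAT6, at −122 to −113 before the second (chr11:59542486-59542685, plus strand).
Nlrp3, first start: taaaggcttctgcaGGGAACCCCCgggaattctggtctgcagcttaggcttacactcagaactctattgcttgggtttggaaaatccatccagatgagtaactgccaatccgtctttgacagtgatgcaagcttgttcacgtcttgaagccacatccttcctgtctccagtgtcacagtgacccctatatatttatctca
Nlrp3, second start: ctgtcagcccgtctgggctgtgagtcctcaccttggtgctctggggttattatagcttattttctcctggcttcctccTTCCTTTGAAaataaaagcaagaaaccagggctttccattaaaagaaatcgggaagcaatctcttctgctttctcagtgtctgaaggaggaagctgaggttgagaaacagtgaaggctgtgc
The NF-κB consensus was found in 4.51% of 32851 such windows of mouse genes and TTCNNNNGAA in 6.95%, each window reaching from 250 bases before to 50 bases after a start and read on both strands. A match describes the letters and shows no binding.

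Aim2, which binds double-stranded DNA in the cytosol, was the one member with an adjusted p under 0.05 in all 3 comparisons. Its log2 values were 11.06, 10.98 and 10.91 on the LPS arrays, 9.70, 9.82 and 10.04 on the IL-4 arrays, and 10.26, 10.43 and 10.19 on the PBS arrays. The conditions did not overlap, with LPS highest, PBS next and IL-4 lowest. LPS raised it by 0.69 ± 0.10 over PBS (SE, 1.61-fold, limma adjusted p = 0.000617), and IL-4 lowered it, with a change of −0.44 ± 0.10 (1.36-fold lower, adjusted p = 0.0385). The gap between the highest IL-4 array and the lowest PBS array was 0.15. The IL-4 call was not stable, being lost in 10 of 20 alternative analyses (adjusted p from 0.00179 to 0.175), 6 of which left out a single array. The adjusted p was 0.0585 without LPS replicate 1, 0.0661 without LPS replicate 2, 0.122 without IL-4 replicate 1 (change −0.36), 0.135 without IL-4 replicate 2 (−0.43), 0.108 without PBS replicate 1 (−0.46) and 0.136 without PBS replicate 2 (−0.37). The difference between LPS and IL-4 was 1.13 ± 0.10 (2.19-fold, adjusted p = 3.22e-05).

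Nlrc4, which assembles with NAIP proteins that detect flagellin and parts of bacterial secretion systems, rose with LPS but had the widest spread of the 7 with LPS and with PBS. The log2 values were 8.07, 7.91 and 7.40 with LPS, 6.69, 6.43 and 6.51 with IL-4, and 6.99, 7.07 and 6.43 with PBS. Replicate 3 was the lowest array of both LPS and PBS, and the lowest LPS array still exceeded the highest PBS array by 0.33. The rise with LPS over PBS was 0.96 ± 0.21 (SE, 1.95-fold, limma adjusted p = 0.00627), and the methods' own test on the same values gave an adjusted p of 0.0893. IL-4 and PBS overlapped, with a difference of −0.28 (95% interval −0.76 to 0.19, adjusted p = 0.478). This difference was −0.16 without PBS replicate 2 (adjusted p = 0.789), −0.48 without PBS replicate 3 (0.132) and −0.48 without LPS replicate 3 and PBS replicate 3 (0.00598). LPS exceeded IL-4 by 1.25 ± 0.21 (2.37-fold, adjusted p = 0.00146).

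Pycard encodes ASC, the adaptor whose pyrin domain binds Nlrp3 or Aim2 and whose CARD binds caspase-1, and it was the only member that fell with LPS. Its log2 values were 8.38, 8.37 and 8.14 on the LPS arrays, 9.44, 9.23 and 9.41 on the IL-4 arrays, and 9.43, 9.46 and 9.03 on the PBS arrays. Every LPS array was lower than every other array, and the highest LPS array was 0.65 below the lowest PBS array. The LPS change was −1.01 ± 0.13 (SE, 2.01-fold lower than PBS, limma adjusted p = 0.000274). IL-4 and PBS differed by 0.05 (95% interval −0.23 to 0.34, adjusted p = 0.848), a value whose sign turned without PBS replicate 3 (−0.087). The difference of LPS minus IL-4 was −1.06 ± 0.13 (2.09-fold lower with LPS, adjusted p = 0.000192).

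The 200 bases before the start of Pycard (chr7:127993868-127994067, minus strand, RefSeq GRCm38.p6) are shown because it moved against the other members. They hold 1 ETS site, AGGAAGT on the opposite strand at bases −44 to −38, in capitals.
Pycard: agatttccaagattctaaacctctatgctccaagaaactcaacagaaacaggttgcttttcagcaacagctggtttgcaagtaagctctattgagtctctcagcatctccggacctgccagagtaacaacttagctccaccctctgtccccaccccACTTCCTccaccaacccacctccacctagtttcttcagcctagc
AGGAAGT stood in 9.35% of the 32851 windows. Aim2 has AGGAAGT at −112 to −106, and Nlrc4 has it on the opposite strand at −106 to −100 and −10 to −4. The part of this site in the changes of these genes was not tested.

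Casp1, the protease that matures IL-1β and IL-18 and cuts gasdermin D, rose with LPS and did not change detectably with IL-4. The log2 values were 10.62, 10.79 and 10.26 with LPS, 8.80, 8.77 and 8.92 with IL-4, and 8.91, 8.96 and 8.49 with PBS. LPS arrays stood at least 1.30 above the PBS arrays, and replicate 3 was the lowest array in both conditions. LPS raised Casp1 by 1.77 ± 0.16 over PBS (SE, 3.42-fold, limma adjusted p = 4.02e-05), the 357th largest rise of all rows. The IL-4 difference was 0.05 (95% interval −0.32 to 0.41, adjusted p = 0.892) and became −0.101 without PBS replicate 3. LPS exceeded IL-4 by 1.73 ± 0.16 (3.31-fold, adjusted p = 4.51e-05).

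Casp4 is the mouse gene for caspase-11, which binds LPS in the cytosol and cuts gasdermin D without the canonical sensors, and it had the second largest rise and the tightest replicates. Its log2 values were 11.51, 11.53 and 11.61 on the LPS arrays, 9.40, 9.39 and 9.42 on the IL-4 arrays, and 9.17, 9.28 and 9.14 on the PBS arrays. The 3 conditions did not overlap. LPS raised it by 2.35 ± 0.05 over PBS (SE, 5.11-fold, limma adjusted p = 1.68e-08), the 196th largest rise of all rows. All IL-4 arrays were above all PBS arrays, as in 14.7% of all rows, but the difference of 0.21 ± 0.05 missed the threshold (95% interval 0.084 to 0.33, 1.15-fold, adjusted p = 0.0668). It passed without LPS replicate 3 and PBS replicate 3 (0.18, adjusted p = 0.0277), without LPS replicate 3 alone (adjusted p = 0.0471), with array weights (0.16, adjusted p = 0.0125) and with the dimmest rows left out (adjusted p = 0.0464). LPS exceeded IL-4 by 2.15 ± 0.05 (4.43-fold, adjusted p = 2.25e-08).

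Casp4, Casp1 and Casp12 lie next to each other on chromosome 9. The 200 bases before the first RefSeq start of Casp4 (chr9:5308649-5308848, plus strand, GRCm38.p6) hold a pair of overlapping matches to the NF-κB consensus from bases −93 to −83, in capitals, while the stretch before its neighbour Casp1 (chr9:5298317-5298516, plus strand) holds none of the 6 motifs searched. They are shown side by side because both neighbours rose with LPS.
Casp4: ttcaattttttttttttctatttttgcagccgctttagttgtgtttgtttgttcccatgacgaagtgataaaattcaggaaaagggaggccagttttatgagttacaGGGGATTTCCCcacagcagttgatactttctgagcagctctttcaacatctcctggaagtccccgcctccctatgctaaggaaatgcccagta
Casp1: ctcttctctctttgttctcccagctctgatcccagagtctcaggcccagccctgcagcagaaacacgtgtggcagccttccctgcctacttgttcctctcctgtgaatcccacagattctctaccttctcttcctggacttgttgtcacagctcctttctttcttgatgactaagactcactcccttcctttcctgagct
The other motifs searched were GAAANNGAAA (interferon response element, 3.44% of windows), TTCNNNGAA (STAT, 8.30%) and TGANTCA (AP-1, 7.81%), none of which stood in the windows of these genes. RefSeq windows were given for 6 of the 7 members and not for Gsdmd.

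Gsdmd, the gene for the pore-forming substrate of both caspases, rose with LPS. The log2 values were 8.87, 8.78 and 8.50 with LPS, 7.66, 7.61 and 7.50 with IL-4, and 7.96, 7.94 and 7.60 with PBS. LPS arrays were all higher than PBS arrays, by at least 0.54, and replicate 3 was the lowest array of each condition. The rise over PBS was 0.88 ± 0.12 (SE, 1.84-fold, limma adjusted p = 0.000533). IL-4 differed from PBS by −0.24 (95% interval −0.52 to 0.035, adjusted p = 0.300), and by −0.36 without LPS replicate 3 and PBS replicate 3 (adjusted p = 0.00383). LPS exceeded IL-4 by 1.13 ± 0.12 (2.18-fold, adjusted p = 0.00012).

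**Figure D2:**
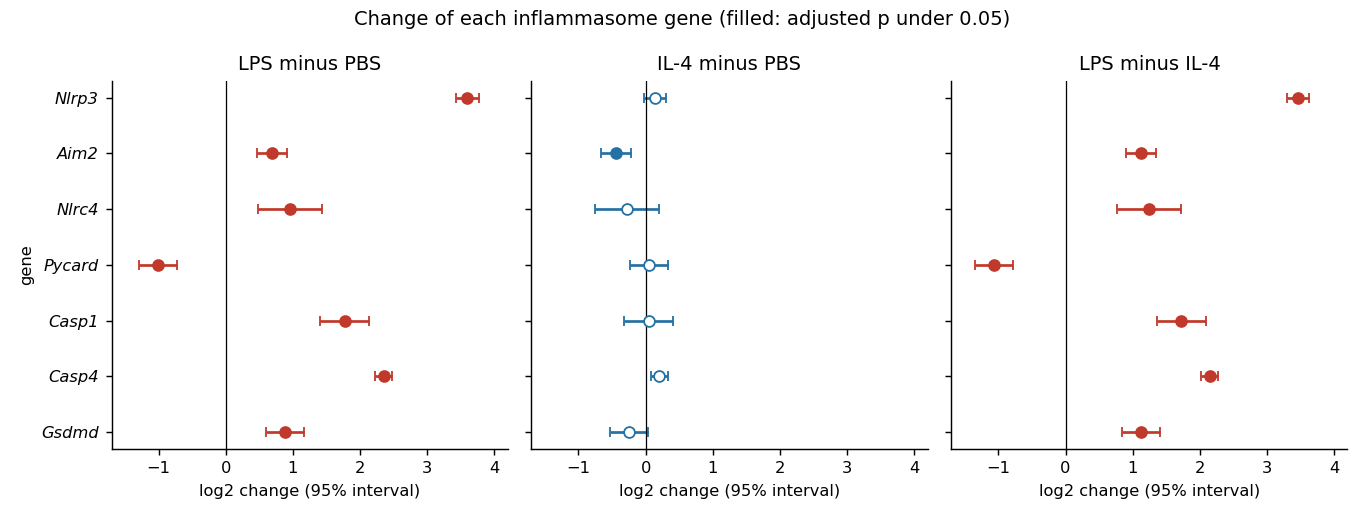
Log2 change of each of the 7 genes (x axis) in 3 comparisons, LPS minus PBS, IL-4 minus PBS and LPS minus IL-4, with 95% intervals from limma. Filled points passed an adjusted p under 0.05: all 7 genes in both LPS comparisons, and Aim2 alone between IL-4 and PBS.

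As the LPS and PBS arrays did not overlap for any of the 7 genes, every pairing of them gives the same direction. Differences at each replicate number therefore show only the size of the change. The LPS array minus the PBS array with its number gave 3.68, 3.57 and 3.56 for Nlrp3 and 2.35, 2.25 and 2.47 for Casp4. For Casp1 they were 1.71, 1.84 and 1.77, and for Pycard −1.05, −1.09 and −0.89. The smallest positive difference was that of Aim2 at number 2 (0.55). Subtracting the median of each array, which moved the median change of all rows by 0.113 in LPS against PBS, kept the direction and call of all 7 genes in that comparison.

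Replicate 3 lay below the other arrays of its condition for most of these genes. It was the lowest LPS array for 6 of 7 genes, all but Casp4, against 47.8% of all rows, the lowest PBS array for 7 of 7, against 48.7%, and the lowest IL-4 array for Gsdmd alone, against 34.5%. The largest shortfalls from the mean of replicates 1 and 2 were those of Nlrc4 (−0.59 with LPS and −0.60 with PBS) and Casp1 (−0.45 in both). For Pycard it was −0.23 with LPS and −0.41 with PBS, and for Gsdmd −0.32 with LPS and −0.35 with PBS. The motile cilia and oligodendrocyte genes that were higher on these 2 arrays are given above, and the mean of the microglia markers was also higher there, at 8.53 against 8.24 and 8.17 on the other LPS arrays and 9.46 against 8.62 and 8.72 on the other PBS arrays. The mean of the astrocyte markers was 9.96 there against 9.54 and 9.53 on the other LPS arrays, and 10.07 against 9.55 on both other PBS arrays. The part of these markers in the lower inflammasome values was not tested. Without both arrays, LPS still raised 6 of the genes and lowered 1, whereas IL-4 against PBS gave 1 higher gene (Casp4) and 3 lower genes (Aim2, Nlrc4 and Gsdmd). Calls rose over the whole table in that fit, to 6389 of 21212 rows against 1146 with all arrays. The PBS arrays kept in it had motile cilia medians of 6.75 and 6.89, below the IL-4 arrays (7.69 to 7.99). PBS replicate 3, left out, had 8.34. The part of this difference in the IL-4 calls was not tested.

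**Figure D3:**
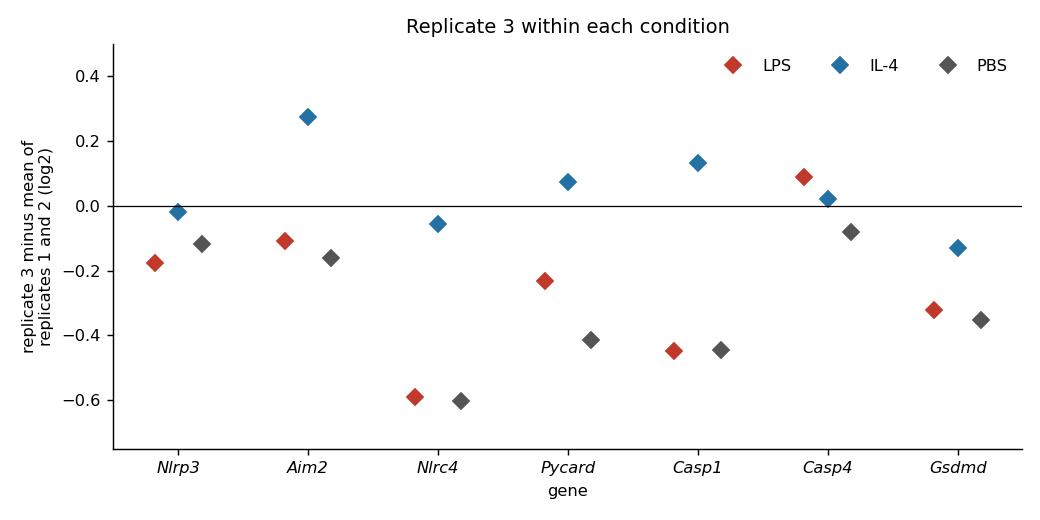
Replicate 3 minus the mean of replicates 1 and 2 (log2, y axis) for each of the 7 genes, with 1 point per condition. The LPS points are below 0 for 6 genes and the PBS points for 7, with Nlrc4 lowest at −0.59 and −0.60.

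Microglia markers moved with LPS as well: 0 of 13 were higher and 9 of 13 lower than with PBS, with a mean of 8.17 to 8.53 over the LPS arrays, 8.85 to 8.94 over the IL-4 arrays and 8.62 to 9.46 over the PBS arrays. Neutrophil markers averaged 5.01 to 5.18 on the LPS arrays, 5.15 to 5.21 on the IL-4 arrays and 4.92 to 5.05 on the PBS arrays, and 3 of 9 were higher and 1 lower with LPS than with PBS. Between IL-4 and PBS, 1 of 9 was higher with IL-4 and 1 lower, and the median change was −0.04. Cxcr2 averaged 7.41 with IL-4 and 4.73 with PBS. With IL-4, 5 of 9 fibroblast and meninges markers were higher and 0 lower, with a mean of 8.87 to 8.91 over the IL-4 arrays and 8.26 to 8.34 over the PBS arrays. In bulk cultures fewer cells of a type and less RNA per cell cannot be told apart, and the part of cell composition in the changes of the 7 genes was not tested.

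Other genes of the pathway were counted by lists that follow their roles. Beside every list count, markers included, stand 15.4% of all rows higher and 22.4% lower with LPS than with PBS. The shares with IL-4 were 3.35% and 2.05%. Of 8 other sensors measured, 1 was higher and 2 were lower with LPS than with PBS, shares near the 15.4% and 22.4% of all rows. With the replicate block over the 6 arrays Naip6 (−0.33, adjusted p = 0.0145) was lower too. Ifi204, a DNA-binding relative of Aim2, averaged 10.70 ± 0.39 with LPS and 8.08 ± 0.39 with PBS (SD, n = 3 each), a rise of 2.62 (limma adjusted p = 3.01e-05). The lower ones were Nlrp1a (−0.46, limma adjusted p = 0.0205) and Nlrp1b (−0.41, adjusted p = 0.042), of which Nlrp1b senses bacterial proteases. Their calls were lost in 6 of 19 and 10 of 20 alternatives, including subtraction of the array medians. With IL-4, 0 were higher and 2 lower, Naip5 (−0.86, adjusted p = 0.0421) and Naip2 (−0.50, adjusted p = 0.0382), which supply ligand recognition to Nlrc4. These 2 calls were lost in 8 and 9 of 20 alternatives, and as the Naip genes are near copies of one another, like the Ifi200 family with Ifi204, their probes may not separate them.

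The cytokines of the IL-1 family and their antagonists moved with the inflammasome genes under LPS, with 5 of 6 higher and 0 lower. Il1b, the main substrate of caspase-1, averaged 12.67 ± 0.06 with LPS and 7.01 ± 0.11 with PBS (SD, n = 3 each), a 50.4-fold difference (limma adjusted p = 4.30e-09). Il1a rose by 3.28, Il18, the other substrate, by 1.91 and Il1rn, the receptor antagonist, by 2.15. IL-4 also raised Il1b, by 1.22 ± 0.08 (SE, 2.33-fold, adjusted p = 0.000169), a call that held in all 20 alternatives, while Casp1 showed no detectable difference. Il18 was lower with IL-4 (−0.32, adjusted p = 0.00732) and Il1rn higher (0.60, adjusted p = 0.0402, lost in 10 of 20 alternatives).

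Among gasdermins and the membrane rupture gene Ninj1, Ninj1 alone of 7 was called with LPS (0.53, limma adjusted p = 0.00395, and 0.0635 by the methods' own test) and 0 of 7 with IL-4. The share of 1 in 7 lay near the 15.4% of all rows. Of the gasdermin genes measured, Gsdmd alone passed the threshold in LPS against PBS in the limma fit. With array weights Gsdma was higher too (0.31, adjusted p = 0.036). Only 2 of the 7 listed genes remained with the dimmest rows left out, so most of the list lay among the dimmest rows.

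Activation partners of the sensors split in direction with LPS, 6 of 12 higher and 5 lower. The higher ones were interferon-inducible GTPases, a family in which some members help expose bacteria to the sensors. Gbp5 rose by 5.36 (41.1-fold, limma adjusted p = 2.73e-08), Gm12250, the gene of Irgb10, by 4.15 and Gbp2 by 3.20. The lower ones act upstream of Nlrp3. Txnip, a thioredoxin-binding protein, changed by −1.59 (adjusted p = 9.44e-06), P2rx7, the ATP-gated channel through which potassium leaves, by −1.22 (adjusted p = 3.93e-07), the potassium channel gene Kcnk6 by −1.01, the Nlrp3-binding kinase gene Nek7 by −0.35 and the deubiquitinase gene Brcc3 by −0.27. The calls of Kcnk6, Nek7 and Brcc3 were lost in 4, 9 and 3 of 20 alternatives, and those of P2rx7 and Txnip in none. With IL-4, 2 were higher and 4 lower, with Gm12250 (−0.81) and Irgm1 (−0.61, adjusted p = 0.000351 for both) changed most, and Gbp2 (0.50) and Gbp5 (0.59) higher but Gbp3 (−0.54) and Gbp7 (−0.51) lower. The Gbp5 call was lost in 12 of 20 alternatives, that of Gbp3 in 7, that of Gbp2 in 2 and that of Gbp7 in 1.

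**Figure D4:**
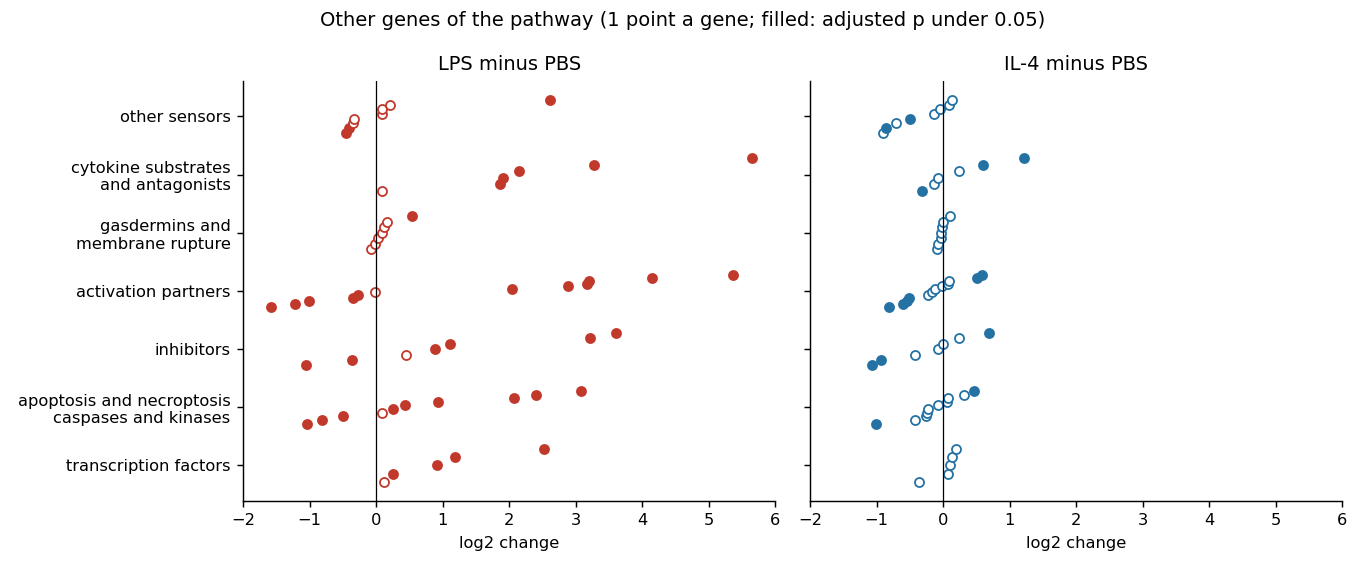
Log2 change (x axis) of the other pathway genes by list, LPS minus PBS on the left and IL-4 minus PBS on the right, 1 point per gene. Filled points passed a limma adjusted p under 0.05. With LPS the cytokine list had 5 of 6 genes higher and the activation partners 6 higher and 5 lower.

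Of 7 inhibitors, 4 were higher and 2 lower with LPS. Serpinb1a was also higher in 5 of 19 alternatives, among them the replicate block over the 6 arrays (0.45, adjusted p = 0.0368). Ifi208, the gene of the pyrin-only protein Pydc3, rose by 3.61 (limma adjusted p = 9.20e-07), Tnfaip3, which encodes the ubiquitin-editing enzyme A20, by 3.22 and Trim30a by 1.11. Nlrc3 changed by −1.05 and Nlrx1 by −0.36, the second a call lost in 5 of 20 alternatives. With IL-4, Tnfaip3 was higher (0.69), and Trim30a (−0.94, adjusted p = 0.000247) and Nlrc3 (−1.07, lost in 9 of 20) were lower.

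Of 10 caspases and kinases of apoptosis and necroptosis, 6 were higher and 3 lower with LPS. Mlkl, the pore-forming pseudokinase of necroptosis, rose by 3.09 (limma adjusted p = 2.32e-05), Zbp1, a sensor of Z-form nucleic acids, by 2.41 and Cflar, which restrains caspase-8, by 2.08. Casp12, the neighbour of Casp4, rose by 0.93 and Casp8 by 0.43, whereas Casp6 fell (−1.04, adjusted p = 8.85e-06). With IL-4, Zbp1 was lower (−1.003) and Casp6 higher (0.46). The transcription factors listed for these genes had 4 of 5 higher with LPS and 0 called with IL-4. Irf1 rose by 2.53, Irf2 by 1.19 and Rela, the NF-κB subunit p65, by 0.92 (adjusted p = 1.45e-07, 1.23e-06 and 2.14e-05). The fourth was Spi1, which encodes PU.1 (0.26, adjusted p = 0.0413), a call lost in 10 of 20 alternatives, among them leaving out LPS replicate 1 (0.24) or 2 (0.24), any 1 IL-4 array (0.26), PBS replicate 1 (0.30) or PBS replicate 3 (0.16). Irf8 showed a difference of 0.11 (adjusted p = 0.594).

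Genes with the profile most like each member were sought over the 9 arrays among all 18786 rows with 1 symbol, by the root mean square difference of log2 values less the PBS mean. Nlrp3 was nearest to Serpina3f (0.134), Nfkbiz (0.137) and Adamts4 (0.193), the largest distances among the 7 members. Casp4 was nearest to Pcgf5 (0.072), Slco3a1 (0.088) and Stk40 (0.089), and Casp1 to Spryd7 (0.103), Atm (0.108) and Tnip1 (0.114). Pycard was nearest to Hes6 (0.059), Slc25a35 (0.076) and Map4k1 (0.094), and Aim2 to Gm6548 (0.100), Gm1966 (0.104) and Stard3 (0.110). Man2a1 was among the nearest genes of both Gsdmd (0.071, after Accsl at 0.045 and before Mertk at 0.085) and Nlrc4 (0.115, after Gpr132 at 0.096 and Cpeb4 at 0.109). No other member appeared in any of these lists.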

How the data were processed

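RNA of cultured microglia was hybridised to 9 Mouse Exon 1.0 ST arrays. The authors deposited 1 table of log2 values summarised per gene by RMA with the affy package, versions not given in the sources used here. RMA equalises the arrays by quantiles and can shrink a shift shared by most genes. The table holds 21212 rows between 2.05 and 13.06 with none missing, of which 18786 have 1 gene symbol, 6 several and 2420 no entry. Read depth does not apply to arrays, whose number limits the precision. Only mRNA values were analysed here.

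Conditions came from the sample labels. The 3 comparisons were fitted with limma 3.58.1 (lmFit and eBayes, statmod 1.5.0, R 4.3.3) using all 9 arrays, each condition with its own mean and without a block, with Benjamini-Hochberg adjustment across the rows. A gene was called at an adjusted p under 0.05, and 95% intervals come from the same fit. Residual df were 6 and prior df 2.38. The fit was tested on simulated data. Tables and figures used Python 3.11.15, pandas 2.3.3, numpy 2.4.6 and matplotlib 3.10.9.

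The members, gene lists and motifs were chosen with earlier results of these data known. All 7 members were named in each comparison, and of each pathway list the called genes with the 3 largest changes in LPS against PBS and the 2 largest in IL-4 against PBS. The 3 nearest profiles of each member were also named. Other genes were named after their values had been seen, namely Il18, P2rx7, Txnip, Kcnk6, Nek7, Brcc3, Nlrx1, Casp8, Casp12, Spi1, Naip6, Serpinb1a and Irf8, Nlrc3 and Casp6 with LPS, and Gbp2, Gbp3, Gbp5, Gbp7 and Tnfaip3 with IL-4.

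Same-numbered LPS and PBS arrays deviated together from their condition means (r = 0.578, 0.651 and 0.800), but PBS replicate 1 with LPS replicate 2 gave 0.605, so numbers 1 and 2 are not told apart. The values were 0.339, −0.255 and 0.075 for IL-4 and PBS, and 0.289, −0.228 and 0.059 for LPS and IL-4. The limma fit used no pairing. Differences at each number were given for LPS and PBS only, whereas the replicate block tied all arrays it covered by number, IL-4 included. The 20 alternatives were the t-test that the methods name (called the methods' own test), a fit to the 6 arrays compared, eBayes with trend or robust, array weights, quantile normalization again, subtraction of array medians, leaving out the dimmest rows (14141 kept), the replicate block over 9 or 6 arrays, leaving out each array, and leaving out replicate 3 of LPS and PBS. The pathway lists were put through them after the values had been seen. P-values of the t-test were adjusted by Benjamini-Hochberg here, an adjustment that the methods do not name for that test.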

Additional observations from a re-analysis of the deposited data

How the results depend on the processing

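In LPS against PBS, 139 of 140 combinations of a member and an alternative kept the direction and the call, the exception being Nlrc4 with the methods' own test (adjusted p = 0.0893), and in LPS against IL-4 all 140 did. In IL-4 against PBS 116 of 140 did. There the count of lower members, 1 in the limma fit, was 0 with the methods' own test, in the fit to 6 arrays and with the replicate block over 9 or 6 arrays, 3 with array weights, 3 without replicate 3 of LPS and PBS, and between 0 and 1 when single arrays were left out. The count of higher members, 0 in the limma fit, was 1 with array weights, with the dimmest rows left out and without replicate 3 of LPS and PBS, and between 0 and 1 when single arrays were left out. Leaving out LPS replicate 1 or 2, IL-4 replicate 1 or 2, or PBS replicate 1 or 2 ended the Aim2 call, and leaving out LPS replicate 3 made Casp4 the higher member. With the replicate block the IL-4 change of Aim2 had an adjusted p of 0.0575 over 9 arrays and 0.146 over 6, and the block changed no other call of the 7 members in any comparison. The IL-4 change of Pycard turned to −0.094 with array weights, −0.087 without PBS replicate 3 and −0.087 without replicate 3 of both LPS and PBS, and that of Casp1 to −0.088, −0.101 and −0.101. With single arrays left out these changes ran from −0.087 to 0.127 and from −0.101 to 0.134. Irf8 in LPS against PBS ran from −0.055, without LPS replicate 3, to 0.228. The causes were not tested.

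Subtracting array medians moved the share of higher calls over all rows to 63.9% for LPS against PBS (40.8% without it), 50.3% for IL-4 against PBS (62.0%) and 72.1% for LPS against IL-4 (44.8%). Array weights called 8295 rows in IL-4 against PBS and the 7 arrays without replicate 3 of LPS and PBS called 6389, against 1146 in the limma fit. Which arrays the weights lowered was not examined. Of 50 named results on other pathway genes, 26 kept their call and sign in every alternative.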
